A study of Arabidopsis thaliana with 21 samples.

Results

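The genes described here are the protein-coding genes of the Arabidopsis thaliana mitochondrial genome. They were taken from the deposited TAIR10 gene annotation as the loci on its mitochondrial sequence that are noted as protein coding, which gave 122 of the 27416 protein-coding loci in the file. The annotation holds no value for any library, so what follows concerns gene models and sequence and no difference between samples.

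Plant mitochondria descend from a bacterial endosymbiont and keep a small set of its genes, mostly for the membrane subunits of the respiratory chain, for ATP synthase, for cytochrome c maturation and for their own ribosomes. The other mitochondrial proteins are encoded in the nucleus and imported. Flowering plant mitochondrial genomes are large, recombine between repeats and carry long group II introns, some of which are broken apart so that exons transcribed separately are joined by trans-splicing. Their transcripts are also changed by C-to-U RNA editing, which often restores the conserved amino acid.

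The series compared stems and leaves of soc1-ful plants with those of wild type (WT), both in accession Col-0 grown at 20 °C in days of 16 h of light. The soc1-ful groups, named for the genes SOC1 and FUL, were leaf and 3 kinds of stem labelled herbaceous, cambium and wood. The WT groups were leaf and the herbaceous and cambium stems. Each of the 7 groups had 3 libraries, 21 in all, made strand-specifically from poly(A) RNA. Expression and depth are not analysed here. Plant mitochondrial transcripts mostly lack stable poly(A) tails, so poly(A) selection limits such libraries as a measure of these genes.

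The 122 loci lay on a mitochondrial sequence of 366924 bp beside 21 tRNA and 3 rRNA loci, each coding locus with 1 isoform. They stood at 33.2 per 100 kb of sequence, against 57 per 100 kb for the 88 chloroplast coding loci and 22.8 per 100 kb for the 27206 nuclear ones. Coding sequence covered 18.3% of the mitochondrial sequence, 51.1% of the chloroplast sequence and 28% of the nuclear chromosomes. The order against nuclear genes depended on the reading frames without a gene name: with only the loci that carry a RefSeq gene name the density was 10.4 per 100 kb, and by the TAIR10.1 annotation 8.97 per 100 kb, both below the nuclear value. The median coding length was 438 bp for mitochondrial loci, 472.5 bp for chloroplast loci and 1041 bp for nuclear loci. These values are given with no test, since the genes of a genome are not replicates.

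Coding loci were spread unevenly. Between them lay 112 stretches free of coding loci, with a median of 1579.5 bp, and 15 of these stretches were longer than 5000 bp. The longest had 13651 bp (333106 to 346756, TAIR10 positions) and lay between ATMG01320, which holds exons 3 to 5 of nad2, and the reading frame ATMG01350. The minus strand carried 77 of the loci and the plus strand 45. Untranslated regions were annotated at 4 loci only, namely both atp6 loci, cox3 and atp9.

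The deposited file gives no gene names. Names were carried over from the RefSeq annotation of the TAIR10.1 mitochondrial sequence by length and spacing of the features, since the 2 mitochondrial sequences differ in length and arrangement. This named 110 of 122 loci, and 38 of these loci carried all 32 gene names of the RefSeq annotation. A further 72 loci matched numbered open reading frames, and 12 had no match. The 72 and the 12 together form the 84 reading frames of unknown function. That label means only that no RefSeq gene name was matched. Notes on nuclear genes describe some of them, such as ORF251 (ATMG01110) as a mitovirus RNA-dependent RNA polymerase and ORF199 (ATMG00370) as a Ycf1 protein.

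Complex I, the NADH dehydrogenase that feeds electrons into the respiratory chain, had more named loci than any other group, 14 of 38, for 9 gene names (nad1 to nad7, nad4L and nad9). Complex III was represented by cob, cytochrome b, with 1182 bp of coding sequence. Complex IV, the terminal oxidase, was represented by cox1, cox2 and cox3, with 783 to 1584 bp. ATP synthase had 6 loci for 5 names, from atp9, the ring subunit of the proton channel, with 258 bp, to atp1, the alpha subunit of the catalytic head, with 1524 bp. No locus carried the name of a complex II subunit.

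Cytochrome c maturation genes, whose products deliver and attach haem to cytochrome c, numbered 5. They ranged from ccmFN2 with 612 bp to ccmFC with 1359 bp, and ccmFC, ccmFN1 and ccmFN2 are parts of the haem ligation subunit encoded by separate genes. Ribosomal protein genes numbered 7, from rps12 with 378 bp to rps3 with 1671 bp. The transport gene mttB, related to the TatC subunit of bacterial protein translocases, had 861 bp. The longest coding sequence of any single locus was that of matR, a maturase that assists intron splicing, with 2019 bp. It was followed by rps3 with 1671 bp, cox1 with 1584 bp, atp1 with 1524 bp and nad4 with 1488 bp. Of the genes annotated in pieces at several loci, nad5 summed to 2010 bp and nad2 to 1500 bp.

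The coding sequence of the named loci covered 8.56% of the mitochondrial sequence and that of the frames of unknown function 9.76%. By coding bases, frames with no gene name in RefSeq therefore took a larger share than the known genes. The introns, all in named loci, spanned 7.72% of the sequence and do not enter the share of their host loci. The plot of coding length by group shows the frames packed against a lower limit that named genes cross.

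**Figure D1:**
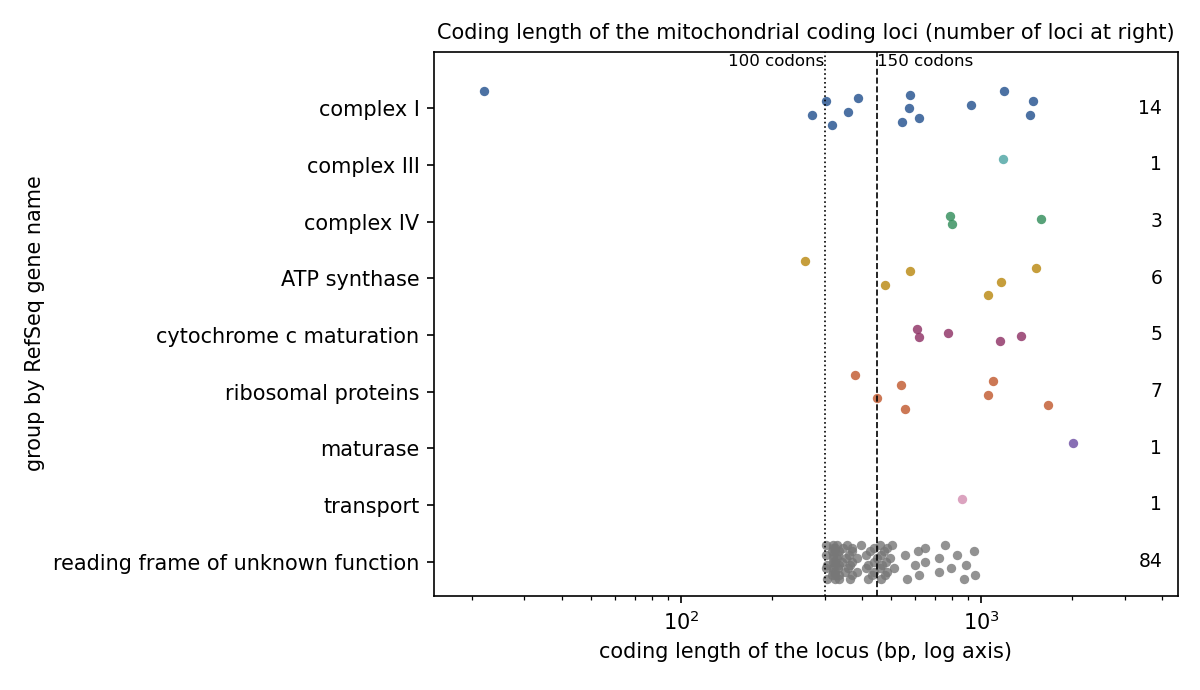
Coding length in bp (log axis) of each of the 122 mitochondrial coding loci, 1 point per locus, by group of the RefSeq gene name, with dotted and dashed lines at 100 and 150 codons. The 84 frames of unknown function begin at 303 bp, and only 3 named loci lie below the 100-codon line.

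Short reading frames made up much of the set. A coding sequence under 150 codons, stop codon included, was found in 63 mitochondrial loci (51.6%), in 42 chloroplast loci (47.7%) and in 4441 nuclear loci (16.3%). Among the mitochondrial loci, 54 of the 84 frames of unknown function (64.3%) and 9 of the 38 named loci (23.7%) were under 150 codons. The 9 included loci that hold only a piece of a gene, namely ATMG00665 of nad5 and ATMG01120, ATMG00516 and ATMG01275 of nad1. Joined over their pieces, nad5 had 670 codons and nad1 326. The frames ranged from 303 to 948 bp with a median of 376.5 bp. None of them was under 100 codons and 21 had fewer than 110 codons.

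The loci under 100 codons were all named. They were exon 3 of nad5 (ATMG00665, 22 bp), atp9 (ATMG01080, 258 bp) and exons 2 and 3 of nad1 (ATMG01120, 273 bp). The next shortest, at 303 bp each, were nad4L, a membrane subunit of complex I, ORF100A, ORF100B and the unnamed ATMG01240. Many frames had the same length as another: 18 lengths were carried by 52 frames, with 7 frames at 321 bp and 7 at 324 bp. The number in the RefSeq name equalled the number of codons less the stop for 69 of the 72 matched frames.

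Equal length was in a few cases equal sequence. On the TAIR10.1 sequence, all words of 50 bases of ORF139A occurred again in ORF139B, those of ORF106A in ORF106G, and those of ORF152B in ORF152A, so each of these pairs was an exact duplicate. In all, 10 pairs among 17 loci shared words at different places of the mitochondrial sequence. Several joined a frame of unknown function to a respiratory gene.

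ORF291 (ATMG01280) shared 172 words with cox2, which was 20.8% of the words of ORF291 and 25.1% of those of cox2. ORF313 (ATMG00590) shared 60 words with cob and 18 with nad6. ORF315 (ATMG00040) shared 46 words with atp9, 26.1% of the words of atp9, and 79 words with ORF262. Frames joined from parts of respiratory genes are known in plant mitochondria, and some cause male sterility in crops. Words shared with the chloroplast genome occurred in 3 loci, all frames, with 199 words in ORF199, 117 in ORF110A and 8 in ORF107G.

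The gene atp6, the proton channel subunit of ATP synthase, was annotated as 2 whole loci. ATMG00410 had 1158 bp on the plus strand (111587 to 112907 with its untranslated regions) and ATMG01170 had 1050 bp on the minus strand (296820 to 298204). The pair shared 712 words, which was 64.2% of the words of ATMG00410 and 71.1% of those of ATMG01170. The shared sequence formed the larger part of either copy, and the rest differed between the copies.

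Introns were few and long. They occurred in 12 of the 122 mitochondrial loci (9.84%), in 15 chloroplast loci (17%) and in 21248 nuclear loci (78.1%). The order against chloroplast loci depended on the reading frames without a gene name, since all 12 were among the 38 named loci. By the TAIR10.1 annotation, with 32 gene names, 9 genes had an intron. The 18 mitochondrial introns had a median length of 1407.5 bp, against 712 bp for the 16 chloroplast introns and 99 bp for the 117151 nuclear introns. The shortest mitochondrial intron had 829 bp and the longest 3512 bp, with 6 under 1000 bp and 3 over 2000 bp. Introns summed to 28312 bp, or 7.72% of the mitochondrial sequence.

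Complex I genes held 77.8% of the introns. The subunit gene nad7 had 4 introns of 963, 1063, 1053 and 1819 bp and 5 exons, the shortest of 69 bp. The subunit gene nad4 had 3 introns of 1471, 3081 and 1942 bp, and its locus of 7982 bp was the longest in the set. The other intron loci outside complex I had 1 intron each: rps3 with 1581 bp, rpl2 with 1552 bp, cox2 with 1344 bp and ccmFC with 960 bp. None of the 84 frames of unknown function had an intron.

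**Figure D2:**
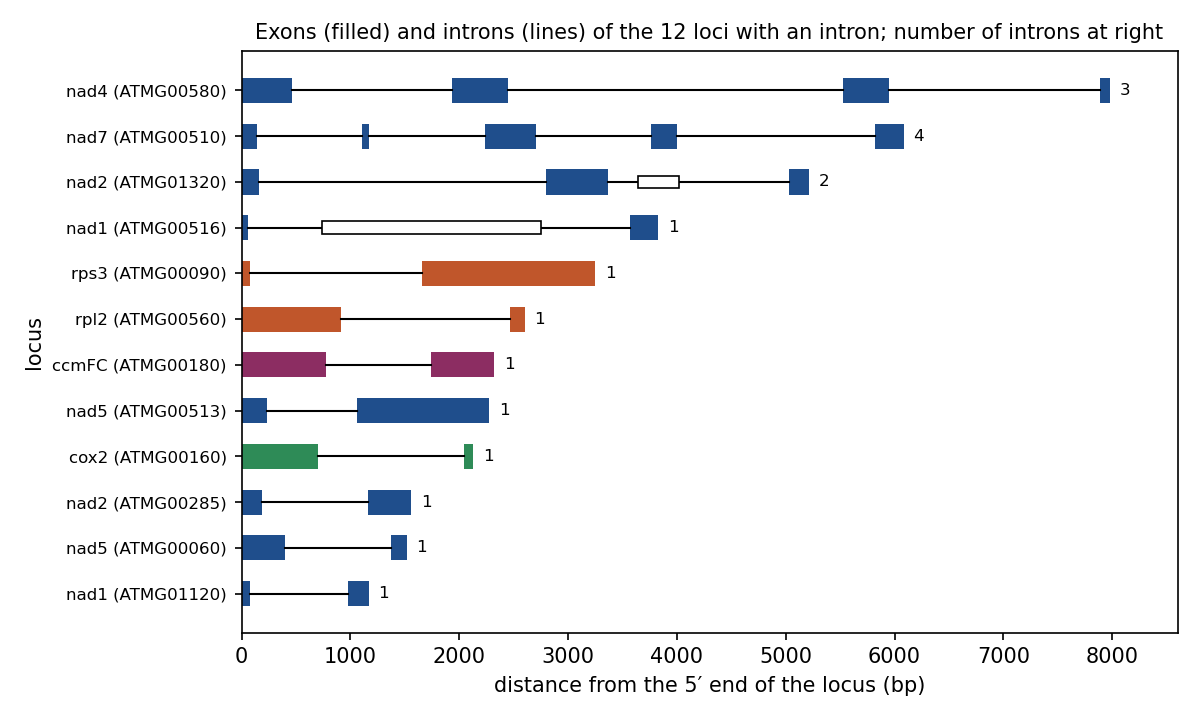
Exons (filled boxes, coloured by functional group as in the plot of coding lengths) and introns (lines) of the 12 loci with an intron, to scale from the 5′ end in bp, with open boxes for genes inside an intron. Introns take up most of nad4 and nad7, and the open box in the ATMG00516 intron is matR.

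Other genes lay inside 2 of the introns, both on the strand of the host. The 3512 bp intron of ATMG00516, between exons 4 and 5 of nad1, held matR, a placement shared by many flowering plants. The second intron of ATMG01320, 1656 bp long between exons 4 and 5 of nad2, held ORF107H (ATMG01330, 384 bp).

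The exons of 26 of the 38 named loci had the same lengths in TAIR10 and in RefSeq. In rps3, cox2, nad4 and the nad2 locus ATMG01320, a junction was placed 1 base apart with the summed length unchanged. The summed coding length differed at 8 loci, with matR longer by 48 bp, atp9 by 33 bp and mttB by 18 bp in TAIR10. Intron lengths were the same for 4 of the 18 introns and within 5 bp for 17. The exception was the rpl2 intron, with 1552 bp in TAIR10 and 1651 bp in RefSeq.

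The ends of the introns were read on the TAIR10.1 sequence at RefSeq junctions, trans-spliced ones included. Group II introns typically begin with GTGCG or a close variant, whereas spliceosomal introns begin with GT and end with AG. Of 23 mitochondrial junctions, 9 (39.1%) began with GTGCG and 7 with GGGCG. The letters GCG stood at positions 3 to 5 of the intron in 19 of the 23 (82.6%), in 8 of 16 chloroplast introns (50%) and in 555 of 117151 nuclear introns (0.474%). No mitochondrial or chloroplast intron ended in AG, against 99.9% of nuclear introns. Only the strand of the intron itself was read. A match of letters describes the sequence and does not identify a splice site, and a junction moved by 1 base changes it.

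Of the 23 junctions, 18 were within a continuous stretch and 5 were trans junctions, which join exons from distant places. In the deposited annotation 4 gene names stood on more than 1 locus. One was atp6 with its whole copies, and the others, nad1, nad2 and nad5, were each divided into loci with different exons, 8 loci in all. RefSeq marks the same 3 genes as trans-spliced. All are core subunits of complex I.

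The subunit gene nad1 was divided into 3 loci. Exon 1 was ATMG01275 (318004 to 318390, TAIR10, minus strand, 387 bp). Exons 2 and 3 were ATMG01120 (287917 to 289083, minus strand, 273 bp coding). Exons 4 and 5 were ATMG00516 (143219 to 147048, minus strand, 318 bp coding). The pieces summed to 978 bp, or 326 codons, the same as the RefSeq coding sequence. Along the shorter way round the circle, 28920 bp separated the first from the second piece and 140868 bp the second from the third.

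The gene nad2 was divided into 2 loci. ATMG00285 (79740 to 81297, minus strand) held exons 1 and 2 with 578 bp, and ATMG01320 (327890 to 333105, minus strand) held exons 3 to 5 with 922 bp. Neither length was a multiple of 3, with 2 bases and 1 base left over, while the sum of 1500 bp was. RefSeq gives nad2 1467 bp, 33 bp less, and the difference lay in exon 1 (185 bp in TAIR10 and 153 bp in RefSeq) and exon 2 (393 bp and 392 bp). The pieces lay 113558 bp apart.

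The gene nad5 had the smallest piece. ATMG00513 (140724 to 142998, minus strand) held exons 1 and 2 with 1446 bp, ATMG00665 (190740 to 190761, minus strand) held exon 3 alone with 22 bp, and ATMG00060 (20571 to 22086, minus strand) held exons 4 and 5 with 542 bp. The sum was 2010 bp, equal to RefSeq. Exon 3 left 1 base over and the last piece 2, so the reading frame continues only when all pieces are joined. Distances were 47741 bp from the first to the second piece and 168653 bp from the second to the third. The 4 loci whose coding length was no multiple of 3 were all pieces of nad2 or nad5.

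Exon 3 of nad5 is shown whole because it is the smallest of all exons here. The run is from the TAIR10.1 mitochondrial sequence, 360103 to 360132, plus strand, with the exon in capitals and 4 intron bases on either side.
nad5 exon 3: gaccGATATGATGATTGGTTTAGGTAgggc

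The ends that are joined in trans are shown next, since they are the places where the divided genes meet. Each run holds 10 exon bases in capitals and 12 intron bases in lower case, read 5′ to 3′ on the strand of the exon in TAIR10.1. The ends of nad1 lay at 82925 to 82946 (minus strand), 58303 to 58324 (plus), 59472 to 59493 (plus) and 230292 to 230313 (plus).
nad1 end of exon 1: CGGTCTAGTAattagggggcgg
nad1 start of exon 2: gaactcctctatATTCGAAATA
nad1 end of exon 3: TGTAGAATATgcgcgggatgcg
nad1 start of exon 4: accttactctcgTCTTCAATGG

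The ends of nad2 lay at 163348 to 163369 (plus strand) and 98033 to 98054 (minus). Those of nad5 lay, on the plus strand, at 236619 to 236640, at 360095 to 360116, at 360119 to 360140 and at 26805 to 26826.
nad2 end of exon 2: TATTGTTTGGgtacgaccggac
nad2 start of exon 3: tacccaccctatTTGTTCCATG
nad5 end of exon 2: CTTGGCCAAAgtgtgacccgtt
nad5 start of exon 3: ggcttagggaccGATATGATGA
nad5 end of exon 3: GGTTTAGGTAgggcggccggcc
nad5 start of exon 4: cttgacccctatCCAATTTTTG

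None of the 5 trans junctions began with GTGCG, and 2 of them had GCG at positions 3 to 5, against 17 of 18 junctions within a continuous stretch. The exon 1 end of nad1 is 2 bases shorter in RefSeq than in TAIR10 and exon 2 is 2 bases longer, so the placement of that junction differs between the annotations.

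The arrangement of the pieces differed between the mitochondrial sequences. In TAIR10 all 8 pieces lay on the minus strand. In TAIR10.1 exon 1 of nad1 lay on the minus strand and its other pieces on the plus strand, with 23455 bp and 170822 bp between successive pieces. The pieces of nad2 lay on opposite strands there, 63789 bp apart. The nad5 pieces all lay on the plus strand, 123478 bp and 34496 bp apart. Loci kept their spacing between the sequences in 11 blocks, of which 8 ran in opposite orientation.

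**Figure D3:**
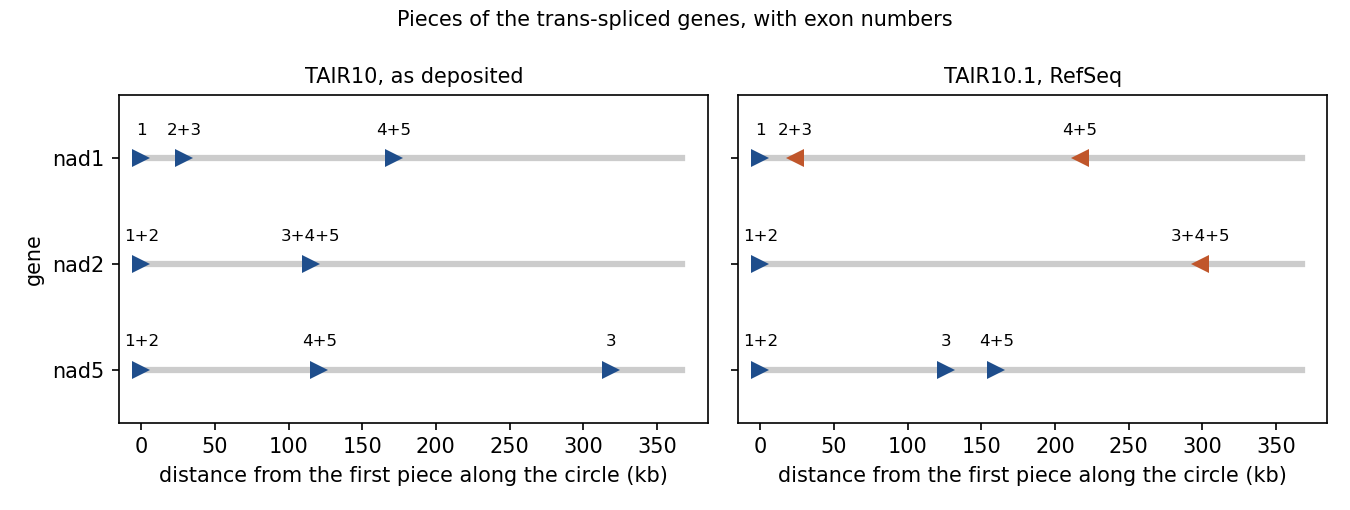
Position of each piece of nad1, nad2 and nad5 as distance in kb from the first piece along the circular sequence, in the direction of the first piece, in TAIR10 (left) and TAIR10.1 (right), with exon numbers above. Right-pointing blue triangles are on the strand of the first piece and left-pointing orange ones on the other strand; exons 4 and 5 of nad5 come before exon 3 in TAIR10 and after it in TAIR10.1.

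Coding loci that share bases with one another numbered 15, in 8 pairs, 4 with both partners on 1 strand and 4 with partners on opposite strands. The shared stretch was 32 to 429 bp with a median of 188 bp, and it was coding in both partners of every pair. Only 1 pair joined 2 named genes. This was rpl16 and rps3, ribosomal protein genes on the same strand that shared 134 bp, or 24.8% of rpl16 and 8.02% of rps3. The shared bases were the 5′ end of rpl16 as annotated, so this overlap depends on its start codon. RefSeq notes that rpl16 may use another start codon.

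The subunit gene nad3 shared 44 bp with ORF114 (ATMG01000) in a different reading frame. ORF114 in turn shared 203 bp with ORF118 (ATMG01010), also in a different frame of the same strand. ORF107C (ATMG00490) and ORF141 (ATMG00500) shared 173 bp on the same strand in different frames.

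The other pairs were of frames on opposite strands. ORF184 (ATMG00870) and ORF187 (ATMG00880) shared 429 bp, the most of any pair. ORF315 (ATMG00040) shared 396 bp with ORF131 (ATMG00050), which lay wholly within it. ORF154 (ATMG00310) and ORF127 (ATMG00320) shared 347 bp, and ORF145B (ATMG01230) shared 32 bp with ATMG01240. Pairs of frames of unknown function thus made up 6 of the 8 overlaps, while such frames were 84 of the 122 loci. Whether frames overlap more often than their number implies was not tested. In a strand-specific library, reads from opposite-strand pairs can be told apart, and those from same-strand pairs cannot within the shared bases.

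RNA editing was read from the RefSeq annotation, which marks single C-to-U sites and calls some of them minor in frequency. It describes published sites and not these libraries. It lists 597 sites, of which 592 lay in the coding sequence of the gene named, and the base in the TAIR10.1 sequence was a C on the coding strand at all of these. Without minor sites, 408 remained, and 377 of these (92.4%) were nonsynonymous, so that the meaning of the codon changed. These include 1 change of glutamine to stop, 1 of arginine to stop and 1 of proline to a residue not given. Of the 184 minor sites, 56 (30.4%) were nonsynonymous. The commonest changes by the 377 sites were serine to leucine (94), proline to leucine (85) and serine to phenylalanine (45).

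The density of these major sites differed widely between genes, with a median of 15.55 per kb of coding sequence. The gene ccmB, an ABC transporter subunit of cytochrome c maturation, had 35 in 621 bp, or 56.4 per kb. It was followed by ccmC, a haem-handling protein of the same pathway, with 35 per kb, nad4L with 33 per kb, mttB with 32 per kb and nad3 with 30.8 per kb. At the other end, cox1, the catalytic subunit of complex IV, had no site of either kind, and atp8 had none that was not minor. Between 0.906 and 2.62 per kb were found in atp6, rpl2, rps7 and atp1.

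By group, major sites stood at 32 per kb in mttB, 22.8 per kb in cytochrome c maturation genes and 19.4 per kb in complex I genes. Ribosomal protein genes had 8.9 per kb, cob 6.77 per kb, complex IV 6.32 per kb, ATP synthase 3.79 per kb and matR 3.55 per kb. Within ATP synthase, atp9 with 17.8 per kb and atp4 with 15.5 per kb stood apart from the other members.

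**Figure D4:**
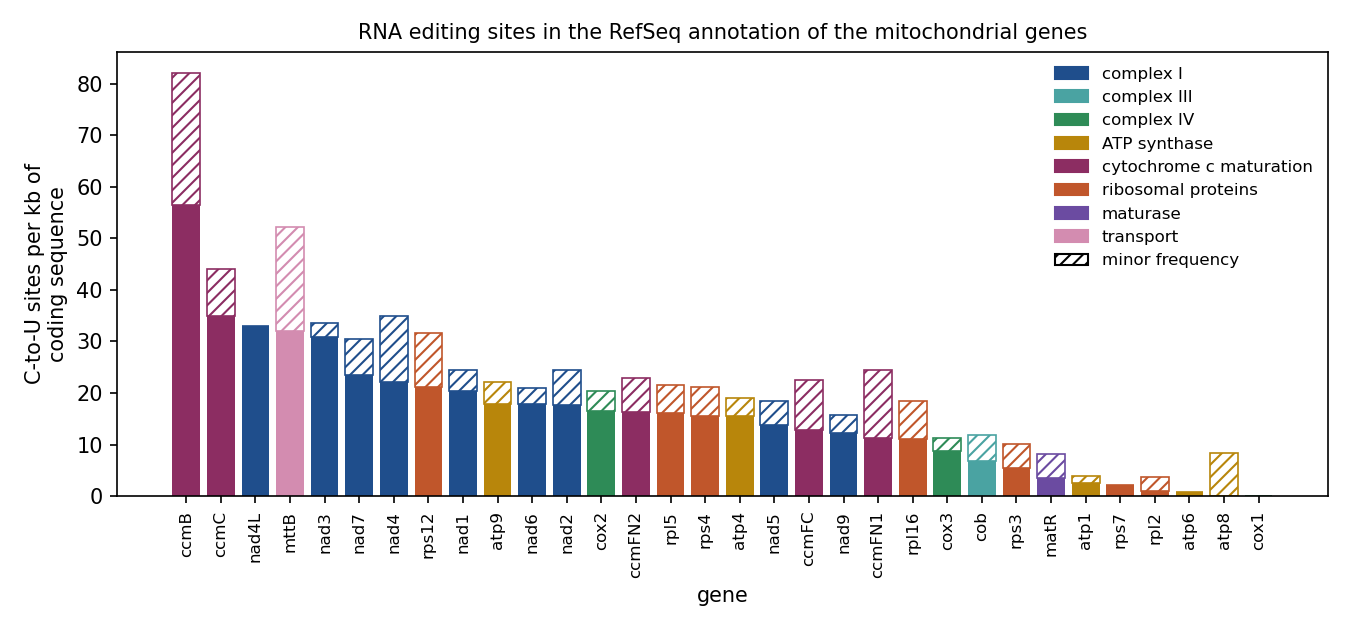
Annotated C-to-U sites per kb of coding sequence for the 32 RefSeq gene names, coloured by functional group, with filled bars for sites not called minor and hatched bars stacked on top for minor ones. The gene ccmB stands highest with 56.4 filled, and cox1 has none.

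The 30 bases of coding sequence with the most major sites, 7, lay in ccmB at 18252 to 18281 of TAIR10.1 (minus strand). It is shown with the edited bases in capitals.
ccmB: CggatCCctcCgttgtttCcttttcCtCct

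Editing also made start and stop codons. In RefSeq 30 of 33 coding sequences, with both atp6 copies counted, began with ATG in the DNA. The coding sequence of nad1 began with ACG, which its notes say becomes the start codon by editing. That of mttB began with TTG and that of ccmFN2 with GTG, where the start codon is noted as not determined. The coding sequence of ccmFC ended in CGA, which editing changes to the stop codon TGA. In rpl16 an edited CAG becomes TAG inside the coding sequence, and RefSeq notes that the gene may be a pseudogene or use another start codon. The first 24 bases of nad1 (83298 to 83321, minus strand) and the last 24 of ccmFC (191747 to 191770, plus strand) are shown with these codons in capitals.
nad1 start: ACGtacatagctgttccagctgaa
ccmFC end: aaggataagttgcgttggaatCGA

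Most mitochondrial coding sequences had exact stretches in common with the nuclear genome. Arabidopsis Col-0 is known to carry a large insertion of mitochondrial DNA near the centromere of chromosome 2. Words of 50 bases were cut from single exons of the 110 matched loci on TAIR10.1 and sought on the nuclear chromosomes, on both strands. At least 1 such word was found for 91 loci. Among frames of unknown function 60 of 72 had one (83.3%), and among named loci 31 of 38 (81.6%). The named loci include 1 that is too short for a word and could not be counted as found. Of all words of the mitochondrial sequence, coding or not, 70.6% occurred on a nuclear chromosome. Shared stretches were therefore not particular to coding loci. A locus with at least 1 word is another measure than a share of words.

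All words of a locus were found in the nuclear genome for 57 loci, 18 of them named, and over 90% for 70 loci, 24 of them named. A single differing base removes up to 50 words, so nad7, with 890 of 940 words found (94.7%), lacked no more words than 1 base can remove. Such words lay on chromosome 2 for 89 of the 91 loci. The others were exons 2 and 3 of nad1, with 34 words on chromosome 1, and ORF204, with 51 words on chromosome 4.

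Named loci with no nuclear word in the TAIR10.1 assembly were cox1, atp4, ccmB, nad4L, nad9 and exons 4 and 5 of nad5. Nuclear sequence missing from the assembly was not searched. Exon 3 of nad5 is shorter than a word. Only part of the words was found for atp6 at ATMG01170 (71.1%), rpl16 (34.6%), cox2 (18.5%) and rps3 (7.44%). For ATMG01170, rpl16 and rps3, the words found in the nucleus equalled in number those found again elsewhere in the mitochondrial sequence, 712, 170 and 117. For cox2, 127 words were found in the nucleus, and 172 words were shared with ORF291. The nuclear locus AT2G07695 held 122 word positions of cox2. It had 727 mitochondrial words of 827, and ORF291 had 727 nuclear words of 827. These nuclear stretches need not be copies of the named loci themselves, and their origin was not tested.

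**Figure D5:**
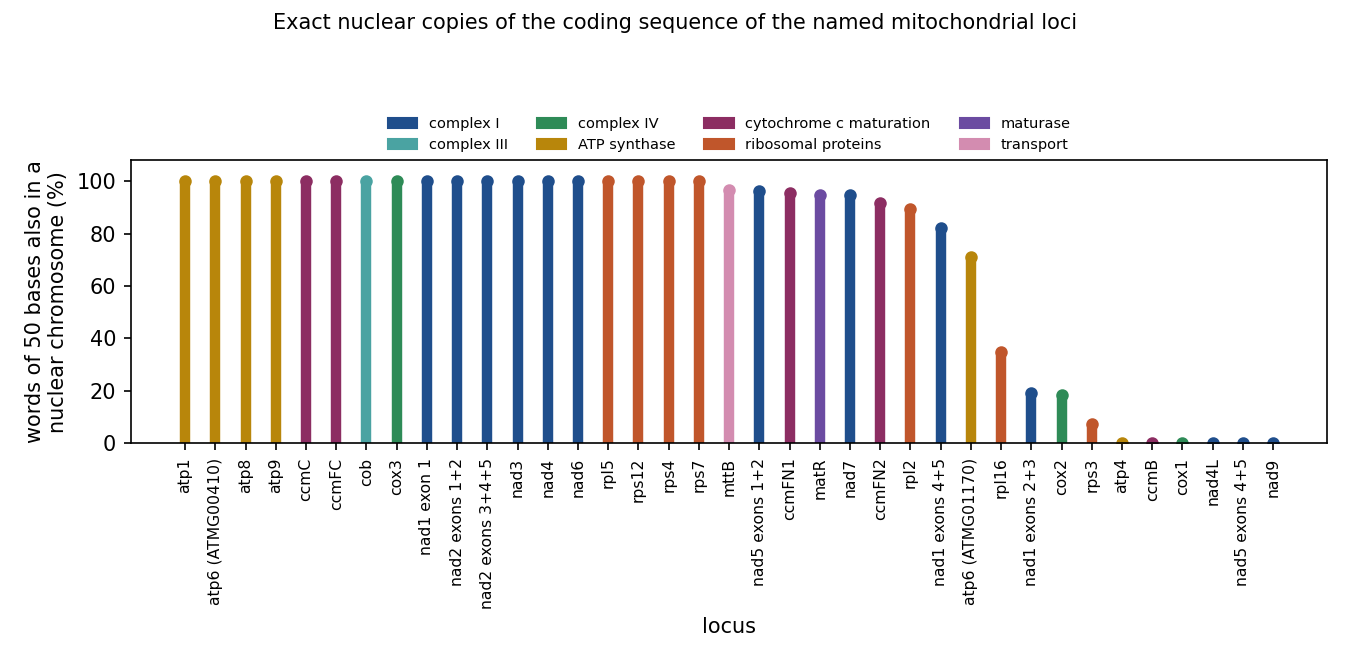
Percent of the words of 50 bases of each named locus that occur in a nuclear chromosome of TAIR10.1, coloured by functional group, with the exon numbers for divided genes and the locus for atp6. Most loci stand at or near 100%, and atp4, ccmB, cox1, nad4L, nad9 and exons 4 and 5 of nad5 stand at 0.

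Of the whole mitochondrial sequence, 70.4% of words occurred on chromosome 2 and 0.97% on chromosome 1, and at most 0.114% on any of chromosomes 3 to 5. The largest cluster of these words, chr2:3239038-3509765, spans 270728 bp, with no gap over 10000 bp. The deposited annotation places 129 loci there, of which 63 are protein coding, 27 pseudogenes, 23 tRNA loci and 16 transposable element genes. Each of the 63 coding loci held mitochondrial words in its exons, at least 80.1% of its words. The cluster was itself defined by such words, with 259652 word positions over its 270728 bp. A high share in its loci therefore follows from the definition and is not particular to coding loci.

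Several of these nuclear loci held all or nearly all words of a mitochondrial gene. AT2G07727 (chr2:3450578-3452044) held all 1133 words of cob, AT2G07734 (chr2:3472305-3473692) all 1040 of rps4, and AT2G07741 (chr2:3502319-3503476) all 1109 of atp6 at ATMG00410. AT2G07687 (chr2:3311654-3312651) held all 749 words of cox3, and AT2G07698 (chr2:3361474-3364127) held 1458 of the 1475 of atp1. In total 21 nuclear coding loci held words of 20 named mitochondrial loci. That count is not one of gene copies, since some held few such words. AT2G07718 held 60 words of cob and 18 of nad6, and AT2G07773 held 14 of rps12. A read that matches such a stretch exactly cannot be assigned to one copy by its sequence alone. How such reads were treated was not stated in the sources read. A read over an edited base can differ from the DNA of both copies, and such reads were not examined.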

How the data were processed

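The members and groups were chosen with earlier results of these data known. The deposited file is the TAIR10 gene annotation, with 590264 lines. Its values, per the file itself, are start and end positions in bp (a unit classed as other), and its score column held a value in 0 lines, so no library value was analysed. The submitters' processing notes name TopHat2 2.0.8, Trimmomatic 0.0.3 and the build TAIR10, without their roles.

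Python 3.11.15 with numpy 2.4.6 served to read the features. Introns are gaps between exons, and shared bases are exonic. The TAIR10.1 mitochondrial sequence (367808 bp) differs from that of TAIR10, so TAIR10 mitochondrial positions were read on no sequence. RefSeq names were carried over where a locus kept its spacing, within 60 bp, to a block of at least 3 loci with RefSeq features of equal length, up to 10000 bp beyond the block. The segment lengths were the same for 87 of 110 named loci, and 23 were named by their ends. Genes were named in the text if divided, with an intron, sharing bases, among the 5 longest or shortest, or longest or shortest of the ribosomal, ccm and atp groups. Loci named for editing, shared words or nuclear copies were chosen after their values were seen. Sequences, editing notes and words of 50 bases come from TAIR10.1 at RefSeq positions, and nuclear positions are the same in both builds. The word search and the name matching were tested on simulated data. Figures were drawn with matplotlib 3.10.9.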

Additional observations from a re-analysis of the deposited data

How the results depend on the processing

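The 24 alternatives covered 8 results, and 16 of them stayed within 1.5 times the reported count or at the same value. Density was 33.2 loci per 100 kb as annotated, 8.97 by the TAIR10.1 annotation, and 10.4 with only loci that carry a RefSeq gene name, an alternative chosen after seeing the data. Both count fewer loci by construction, since frames of unknown function are left out. The coding share of 18.3% was 18.7% by exons, 25.8% by gene spans, 18.2% with at least 100 codons and 8.56% with named loci only, also chosen after seeing the data. Names on more than 1 locus were 4, and 3 without the whole atp6 copies, while 0 single loci had exons on both strands or out of order. Introns were found in 12 loci as annotated and in 9 genes by the TAIR10.1 annotation. Short frames were 63 under 150 codons and 3 under 100 codons. Loci with nuclear words were 91 with words of 50 bases, 98 with words of 30 and 89 with words of 100. No paired analysis was possible because the deposited annotation holds positions and not library values.

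The annotation gives no error for its positions, and depth sets no limit here. Names rest on spacing for all 110 loci, and 12 loci have none. Word counts and editing sites belong to the TAIR10.1 sequence, which is not the TAIR10 mitochondrial sequence, so a locus can differ there in bases not seen here.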
